A study of Mus musculus with 7 samples.

Results

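The 10 genes described here are Cdkn2a, Trp53, the p53 inhibitors Mdm2 and Mdm4, and 6 further transcriptional targets of p53 (Cdkn1a, Ccng1, Bbc3, Pmaip1, Phlda3 and Zmat3). They were taken by name from the 27179 genes in the count tables, by the Entrez identifier that carries each symbol, and all 10 had a row. RNA-seq was performed on 7 mouse lymphoma cell lines. Each line was derived from an end-stage lymphoma of a male C57BL/6 Eµ-Myc transgenic mouse, in which a Myc transgene under an immunoglobulin enhancer is expressed in the B cell lineage. In 3 lines the Smchd1 gene was wild-type, and 4 lines were Smchd1 null, from mice homozygous for the MD1 mutation of Smchd1. Smchd1 is a chromatin protein that helps to keep the inactive X chromosome and certain clustered genes silent. All 7 lines, the wild-type ones included, therefore carry the Myc transgene, and the comparison between groups is one of Smchd1 genotype in Myc-driven tumor cells. Each library is a single cell line. The labels do not say whether the lines of a group came from separate mice, so FDR values measure the spread between these lines.

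In normal B cells, excess Myc raises the transcription of Cdkn2a, which encodes both p16Ink4a, an inhibitor of the cyclin D kinases, and p19Arf, which binds Mdm2. Mdm2 marks p53 for degradation and Mdm4 blocks its activity, so that p19Arf releases p53 to switch on genes of cell-cycle arrest and cell death. Lymphomas that arise in Eµ-Myc mice are known to lose this pathway often, through Cdkn2a or through Trp53, and cells without functional p53 are known for accumulating p19Arf, because p53 normally holds Cdkn2a down. The level of Cdkn2a in each line was therefore set beside that of Trp53 and of the p53 target genes.

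Total counts ranged from 3626853 in wild-type replicate 1 to 7519549 in Smchd1 null replicate 4, and the level that 3 counts represent ranged from 0.399 to 0.827 CPM. Levels below are CPM (counts per 1000000 of the library total) and are given in the order of the replicate numbers. Wild-type replicate 1 was the only library of batch 1 and the only single-end one. The other 6 libraries were paired-end and formed batch 2, so a feature of wild-type replicate 1 alone cannot be told apart from its batch or read layout. That library and Smchd1 null replicate 4 stood farthest from their groups and received weights of 0.246 and 0.249 in the fit. Wild-type replicates 2 and 3 were by far the closest pair (distance 1.26, as the root mean square log2 difference over the top 500 genes, against 3.11 to 5.23 for every other pair), and with the 2 summed into 1 sample the calls over all genes fell from 1466 to 1. The summed fit leaves 2 wild-type samples, which the method weights equally, so wild-type replicate 1 was no longer down-weighted there. With all 7 lines, wild-type replicates 2 and 3 had the highest weights, 3.78 and 3.06. The wild-type side of the weighted fit thus rests largely on them. Whether they are independent lines was not tested. If they are not, the weighted standard errors and FDR values may be too small. Smchd1 was at 248, 230 and 219 CPM in the wild-type lines and at 25.9, 22.6, 28.6 and 28.7 CPM in the null lines (log2 fold change -3.16, FDR 2.18e-05, limma). The summed level of 7 B cell markers was 1285 to 1821 CPM in the wild-type lines and 1890 to 2307 CPM in null replicates 1 to 3. In null replicate 4 it was 512 CPM, with Pax5 at 16.6 CPM, while no other line had Pax5 below 51.3 CPM. Much of that sum was Cd79b, which was not low there, at 303 CPM against 298, 262 and 291 CPM in the wild-type lines. Each of the other B cell markers was lowest in null replicate 4. Of 7 T cell markers, 4 to 6 had no count in a given library, and their sum of 1.12 to 61.2 CPM was nearly all Lck, which was highest in wild-type replicate 1 (60.9 CPM), at 17.6 CPM in both other wild-type lines and at 0.964 to 11.4 CPM in the null lines. Cd3e and Cd8a had no count in any library. Myeloid markers summed to 4.41 to 32.9 CPM, highest in null replicate 2 (Itgam 23.1 CPM). Endothelial markers summed to 47.7 to 223 CPM, highest in null replicate 4 (Pecam1 219 CPM). Fibroblast markers summed to 10.2 CPM in wild-type replicate 1, to 0.266 CPM in null replicate 4 and to 0 in the other 5 libraries. The part of these differences in the results below was not tested, and fewer cells of a type and less RNA per cell cannot be told apart in bulk libraries.

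Cdkn2a lies on chromosome 4 of GRCm38, at chr4:89274473-89294619. Its 2 products start from separate promoters but share their downstream exons, and the tables hold 1 count for the whole gene, so p19Arf and p16Ink4a transcripts cannot be told apart. The 250 bases before each start, taken from RefSeq (GRCm38.p6), are shown to set the starts apart. The first lies at chr4:89294620-89294869 and the second at chr4:89282193-89282442, both on the minus strand.

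Cdkn2a upstream start (p19Arf): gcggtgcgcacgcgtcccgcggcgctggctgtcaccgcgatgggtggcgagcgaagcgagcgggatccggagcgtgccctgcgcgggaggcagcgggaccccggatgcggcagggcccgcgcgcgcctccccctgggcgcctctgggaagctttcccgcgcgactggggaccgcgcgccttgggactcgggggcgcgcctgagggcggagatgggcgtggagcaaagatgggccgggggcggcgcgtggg

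Cdkn2a downstream start (p16Ink4a): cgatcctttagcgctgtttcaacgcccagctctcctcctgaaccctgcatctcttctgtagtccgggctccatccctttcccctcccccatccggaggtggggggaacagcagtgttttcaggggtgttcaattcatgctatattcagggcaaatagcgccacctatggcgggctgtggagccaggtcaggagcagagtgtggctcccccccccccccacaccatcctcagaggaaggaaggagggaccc

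Neither window held a match to the p53 half-site or to CACGTG, the E-box that Myc binds.

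Cdkn2a was counted almost entirely in 1 of the 7 lines. Wild-type replicate 1 had 845 counts (233 CPM), whereas wild-type replicates 2 and 3 had none. The Smchd1 null lines had 31, 1, 0 and 0 counts, or 4.59, 0.161, 0 and 0 CPM. The level in wild-type replicate 1 was 50.7-fold that of null replicate 1, and at least 473-fold higher than in each of the other 5 lines, taking 3 counts per library as the floor. The 95% Clopper-Pearson interval was 218 to 249 CPM in wild-type replicate 1 and 3.12 to 6.52 CPM in null replicate 1, which covers counting error only. The groups overlap, because each holds lines without a single count. Cdkn2a was present at 0.5 CPM in fewer than 3 libraries and so did not enter the test. The wild-type mean of 77.7 ± 134.5 CPM (SD, n = 3) exceeded the null mean of 1.19 ± 2.27 CPM (SD, n = 4) through wild-type replicate 1 alone, and without it Cdkn2a stood at 4.59 CPM or less in every line.

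The expressed neighbors of Cdkn2a varied far less between lines than Cdkn2a did, apart from Mtap in null replicate 3 and the low counts of Cdkn2b. Of the annotated genes within 1 Mb on each side, 41 had a row in the tables, 27 of them had no count in any library, and 4 had at least 10 counts over the 7 libraries. Focad and Klhl9, at the far side of Mtap, were counted in all lines. Both were highest in wild-type replicate 1, Focad at 68.7 CPM against 46.6 to 60.6 CPM and Klhl9 at 140 CPM against 73.5 to 95.6 CPM. Mtap, an enzyme of methionine salvage and the expressed neighbor nearest to Cdkn2a on that side, was at 181, 94.97 and 88.4 CPM in the wild-type lines. In the null lines it was at 196, 179, 0 and 136 CPM. Null replicates 1 and 2 and wild-type replicate 1 were highest, and of these null replicate 2 had only 1 Cdkn2a count. Null replicate 3 thus had no count for Mtap, Cdkn2a or Cdkn2b, while Focad (57.3 CPM) and Klhl9 (84.5 CPM) were within the range of the other lines. Cdkn2b, which encodes the related inhibitor p15Ink4b, had 5, 0 and 0 counts in the wild-type lines and 4, 32, 0 and 0 in the null lines. Its highest level, 5.14 CPM, was in null replicate 2, where Cdkn2a had 1 count. DNA copy number was not tested, and an absent transcript does not show an absent gene.

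**Figure D1:**
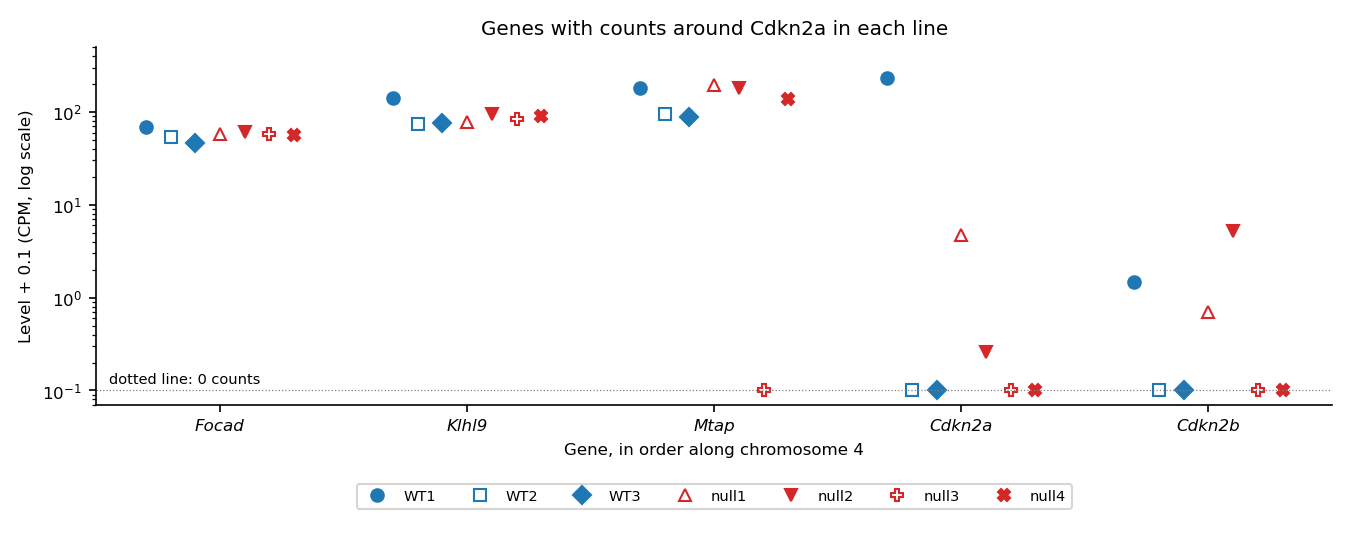
Level of Cdkn2a and of the 4 neighboring genes with at least 10 counts, in the order of the genes along chromosome 4 (CPM + 0.1, log axis). Each symbol is 1 line, with wild-type in blue and Smchd1 null in red, and points on the dotted line had no count. Cdkn2a is high in wild-type replicate 1 (233 CPM) alone, and Mtap is at 0 in null replicate 3 alone.

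Trp53, which encodes p53, was transcribed in all 7 lines. It lies at chr11:69580348-69591873. The wild-type lines had 215, 142 and 149 CPM and the null lines 138, 153, 275 and 266 CPM. Wild-type replicate 1 and null replicates 3 and 4 thus stood above the other 4 lines, which ranged from 138 to 153 CPM, and the groups overlap. The fitted log2 fold change of null over wild-type was 0.25 ± 0.20 (SE), with an FDR of 0.418. Leaving out single lines moved it between 0.014 (without wild-type replicate 2) and 0.59 (without null replicate 1). The 3 higher lines differed in Cdkn2a: 1 held the 233 CPM described above and the other 2 had no count. Per length of transcript, Trp53 had the highest median level of the 10 genes, at 81.8 RPKM, the CPM per kilobase of gene length, against 205 RPKM for Cdkn2a in wild-type replicate 1. A transcript level says nothing of mutations in Trp53 or of the amount of p53 protein, and neither was measured. A pseudogene copy, Trp53-ps, has no row in the tables, and how reads that match both were counted is not given in the sources used here.

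Mdm2 and Mdm4 are the inhibitors of p53, and Mdm2 is in turn switched on by p53. Mdm2 (chr10:117688875-117710758) was at 71.7, 85.9 and 103 CPM in the wild-type lines and at 105, 86.4, 78.8 and 67.6 CPM in the null lines. Of the 10 genes it had the narrowest range, as the ratio of highest to lowest line, and the groups covered nearly the same range (log2 fold change -0.07 ± 0.14 SE, FDR 0.760). The highest Mdm2 was in null replicate 1 and the lowest in null replicate 4.

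Mdm4 (chr1:132986105-133030587) was at 64.2, 190 and 171 CPM in the wild-type lines and at 124, 128, 155 and 115 CPM in the null lines. Wild-type replicates 2 and 3 stood above all 4 null lines and wild-type replicate 1 below them, so the groups overlap. In the fit to all 7 lines the log2 fold change was -0.42 ± 0.20 (SE) with an FDR of 0.183. Within batch 2, that is without wild-type replicate 1, it was -0.47 ± 0.11 (SE) with an FDR of 0.0363. There the wild-type group was only replicates 2 and 3, the closest pair, whose independence was not tested. With batch as a covariate the FDR was 0.0378. Wild-type replicate 1 is all of batch 1, so the covariate absorbs that line. The 2 fits are therefore nearly the same comparison, and the second is no separate evidence. Mdm4 was the only one of the 10 genes that passed the threshold in either of those fits. With voom alone, which weights the lines equally, the log2 fold change was 0.0014 over all 7 lines and -0.49 within batch 2 (FDR 0.204). Without wild-type replicate 2 or 3 the weighted value was 0.34 or 0.25, the opposite direction. With 2 wild-type lines left, the method gives both the same sample weight. Wild-type replicate 1 (64.2 CPM) was therefore no longer down-weighted in those fits. The call therefore depends on which lines enter and how they are weighted.

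The 250 bases before the start are shown for 3 p53 targets that held a match to the p53 half-site, the sequence of 10 bases bound by a pair of p53 molecules, with the matches in capitals. The full response element is made of 2 half-sites up to 13 bases apart. The sequences are from RefSeq (GRCm38.p6), which gave 13 such windows for 8 of the 10 genes and none here for Pmaip1 or Zmat3. They lie at chr17:29090729-29090978 (plus strand) for the upstream start of Cdkn1a, chr10:117710759-117711008 (minus strand) for Mdm2 and chr11:40755287-40755536 (minus strand) for Ccng1.

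Cdkn1a: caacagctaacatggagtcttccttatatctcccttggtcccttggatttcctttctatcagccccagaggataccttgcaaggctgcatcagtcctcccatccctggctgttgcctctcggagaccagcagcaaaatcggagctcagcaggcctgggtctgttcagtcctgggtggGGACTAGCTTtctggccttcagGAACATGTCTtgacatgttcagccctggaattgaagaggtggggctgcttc

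Mdm2: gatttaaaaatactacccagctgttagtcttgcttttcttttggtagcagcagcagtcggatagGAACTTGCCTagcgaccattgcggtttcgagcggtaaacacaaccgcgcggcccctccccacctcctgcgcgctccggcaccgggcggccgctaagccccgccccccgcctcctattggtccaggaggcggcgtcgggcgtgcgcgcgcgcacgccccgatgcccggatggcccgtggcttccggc

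Ccng1: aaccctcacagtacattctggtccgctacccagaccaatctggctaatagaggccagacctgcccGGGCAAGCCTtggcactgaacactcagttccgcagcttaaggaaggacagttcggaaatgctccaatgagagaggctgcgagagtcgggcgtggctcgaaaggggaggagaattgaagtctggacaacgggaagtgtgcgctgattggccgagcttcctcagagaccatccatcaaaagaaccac

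A half-site was found in 4 of the 13 windows (1 each of Cdkn1a, Mdm2, Ccng1 and Trp53), and in 7.13% of the 32851 promoter windows of the genome. The half-site reads alike on both strands. The matches were GGACTAGCTT and GAACATGTCT, 73 and 51 bases before the start of Cdkn1a, GAACTTGCCT 186 bases before that of Mdm2, and GGGCAAGCCT 185 bases before that of Ccng1. Cdkn1a alone held a full element, which 21 of the 32851 windows (0.0639%) contain. The E-box CACGTG was found before 1 start, that of a Bbc3 transcript, against 6.02% of all windows. No match says only that the letters are not in these 250 bases.

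Cdkn1a encodes p21, the kinase inhibitor through which p53 halts the cell cycle. It lies at chr17:29090979-29100722. Its counts were 0, 25 and 53 in the wild-type lines (0, 4.10 and 7.77 CPM) and 32, 7, 8 and 79 in the null lines (4.74, 1.12, 1.24 and 10.5 CPM). The level was low in every line, and wild-type replicate 1 was the only line with no count. Against the floor of 3 counts in that library (0.827 CPM), Cdkn1a was at least 4.96-fold and 9.39-fold higher in wild-type replicates 2 and 3. In null replicates 1 and 4 it was at least 5.73-fold and 12.7-fold higher, and in null replicates 2 and 3 at least 1.36-fold and 1.49-fold. The 95% Clopper-Pearson intervals of null replicates 2 and 3 (0.452 to 2.32 and 0.533 to 2.43 CPM) overlap that of wild-type replicate 1 (0 to 1.02 CPM), so these 3 lines are not set apart at this depth. The spread within each genotype exceeded the difference between them (log2 fold change -1.26 ± 0.85 SE, FDR 0.345). The direction rests on the weights, since the mean was 3.96 ± 3.89 CPM (SD, n = 3) in the wild-type and 4.40 ± 4.40 CPM (SD, n = 4) in the null lines, and voom alone, edgeR and DESeq2 gave 0.54, 0.11 and 0.12.

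Ccng1 encodes cyclin G1, a p53 target that acts back on Mdm2. It lies at chr11:40748552-40755309. The wild-type lines had 40.0, 70.4 and 92.5 CPM and the null lines 157, 89.0, 78.0 and 59.4 CPM. Null replicate 1 was the highest and wild-type replicate 1 the lowest, and their 95% Clopper-Pearson intervals (147 to 166 and 33.7 to 47.0 CPM) lie apart from those of all other lines. The log2 fold change between genotypes was 0.34 ± 0.26 (SE), with an FDR of 0.414, and it ranged from 0.014 without null replicate 1 to 0.88 without wild-type replicate 3.

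Bbc3 and Pmaip1 encode Puma and Noxa, the BH3-only proteins through which p53 triggers apoptosis. Bbc3 (chr7:16308398-16318334) was at 13.8, 26.1 and 28.0 CPM in the wild-type lines and at 25.5, 15.1, 22.6 and 27.0 CPM in the null lines. Wild-type replicate 1 and null replicate 2 were low, with overlapping intervals (10.2 to 18.2 and 12.2 to 18.5 CPM), and the other 5 lines lay between 22.6 and 28.0 CPM. The groups overlap (log2 fold change -0.41 ± 0.21 SE, FDR 0.223). Their means were nearly equal, at 22.6 ± 7.71 CPM (SD, n = 3) in the wild-type and 22.5 ± 5.29 CPM (SD, n = 4) in the null lines, and voom alone, edgeR and DESeq2 gave -0.038, -0.0090 and -0.014.

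Pmaip1 (chr18:66458604-66465558) varied over a wide range in the null lines, at 0.740, 4.50, 8.03 and 32.4 CPM. The wild-type lines had 17.4, 11.2 and 12.2 CPM. Null replicates 1 to 3 were thus below every wild-type line and null replicate 4 above every one. In counts, the null lines had 5, 28, 52 and 244 and the wild-type lines 63, 68 and 83. The log2 fold change was -1.69 ± 0.63 (SE), with an FDR of 0.109, but -0.25 with either edgeR or DESeq2, nearer to the group means of 13.6 ± 3.34 CPM (SD, n = 3) in the wild-type and 11.4 ± 14.3 CPM (SD, n = 4) in the null lines. Null replicate 4, the line with the lowest sum of B cell markers, carries little weight in this value. Without null replicate 4 the log2 fold change was -1.98 ± 0.57 (SE) with an FDR of 0.0616. Without null replicate 1 it was -0.57 ± 0.41 (SE) with an FDR of 0.409. Wild-type replicate 1, which had no Cdkn1a count, had the highest Pmaip1 of the wild-type lines.

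Phlda3 and Zmat3 are p53 targets of other kinds: Phlda3 restrains Akt at the membrane, and Zmat3 is an RNA-binding protein. Phlda3 (chr1:135766085-135769134) had 0, 12 and 15 counts in the wild-type lines (0, 1.97 and 2.20 CPM). The null lines had 39, 2, 3 and 8 counts (5.78, 0.321, 0.463 and 1.06 CPM). Null replicate 1 had the highest level, at least 6.98-fold above the floor of wild-type replicate 1, while null replicates 2 and 3 were themselves at or under 3 counts. The genotypes did not separate (log2 fold change -1.01 ± 0.86 SE, FDR 0.461). The means ran the other way, at 1.39 ± 1.21 CPM (SD, n = 3) in the wild-type and 1.91 ± 2.60 CPM (SD, n = 4) in the null lines, and voom alone, edgeR and DESeq2 gave 0.11, 0.40 and 0.43.

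Zmat3 (chr3:32334792-32365665) was at 43.8, 44.9 and 53.6 CPM in the wild-type lines and at 90.2, 41.9, 39.1 and 21.7 CPM in the null lines. The wild-type lines were close to one another, null replicate 1 lay above them and null replicate 4 below them. The wild-type mean was 47.5 ± 5.37 CPM (SD, n = 3) and the null mean 48.2 ± 29.4 CPM (SD, n = 4), giving a log2 fold change of 0.01 ± 0.29 (SE) and an FDR of 0.986.

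**Figure D2:**
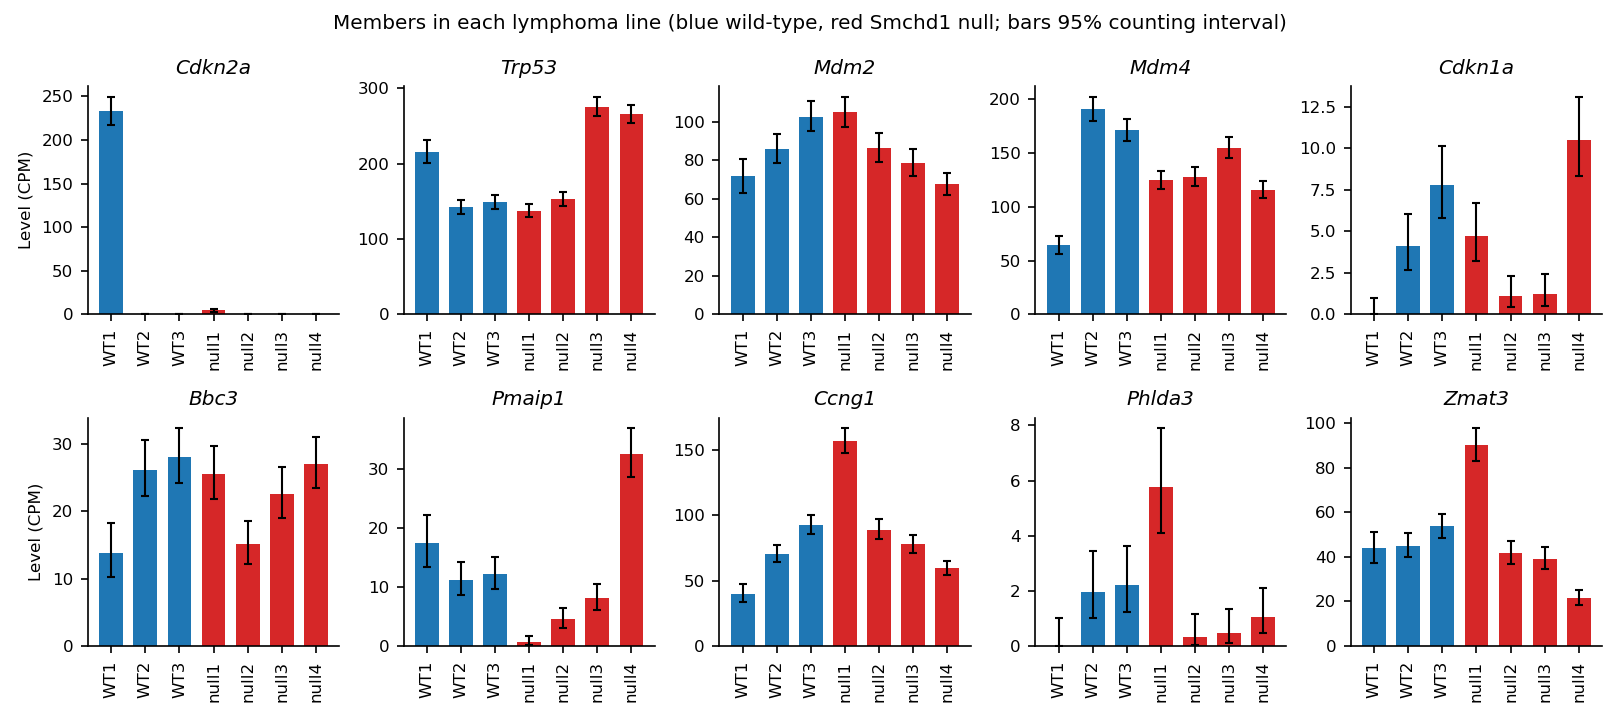
Level of each of the 10 genes in each of the 7 lines (CPM), with wild-type lines in blue, Smchd1 null lines in red and error bars for the 95% counting interval. The genotypes overlap for every gene, Cdkn2a is high in wild-type replicate 1 alone (233 CPM), and Cdkn1a and Phlda3 have no count in that line.

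Of the 9 members that could be tested, none was differentially expressed between Smchd1 null and wild-type lines at an FDR under 0.05 in the weighted limma fit. Across all 12303 genes tested, 1466 were called (11.9%), 623 of them higher (5.06%) and 843 lower (6.85%) in the null lines. At an unadjusted p under 0.05, 1 of the 9 members passed in the weighted fit and 0 passed with voom alone, edgeR or DESeq2, which also called none. Over all genes those shares were 31.8%, 11.3%, 11.5% and 12.8%. The median log2 fold change of the 9 was -0.41, against -0.0058 for all genes, and 3 of the 9 were above 0. That median was 0.0014 with voom alone and 0.039 with edgeR, so its sign rests on the weights. Without wild-type replicate 1 the FDR of the 8 members other than Mdm4 ranged from 0.125 to 0.994, and without null replicate 4 no member was called. The standard errors of Cdkn1a, Phlda3 and Pmaip1, at 0.63 to 0.86 on the log2 scale, leave room for sizeable changes in either direction, and an FDR above the threshold does not show that these genes were alike in the 2 genotypes.

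**Figure D3:**
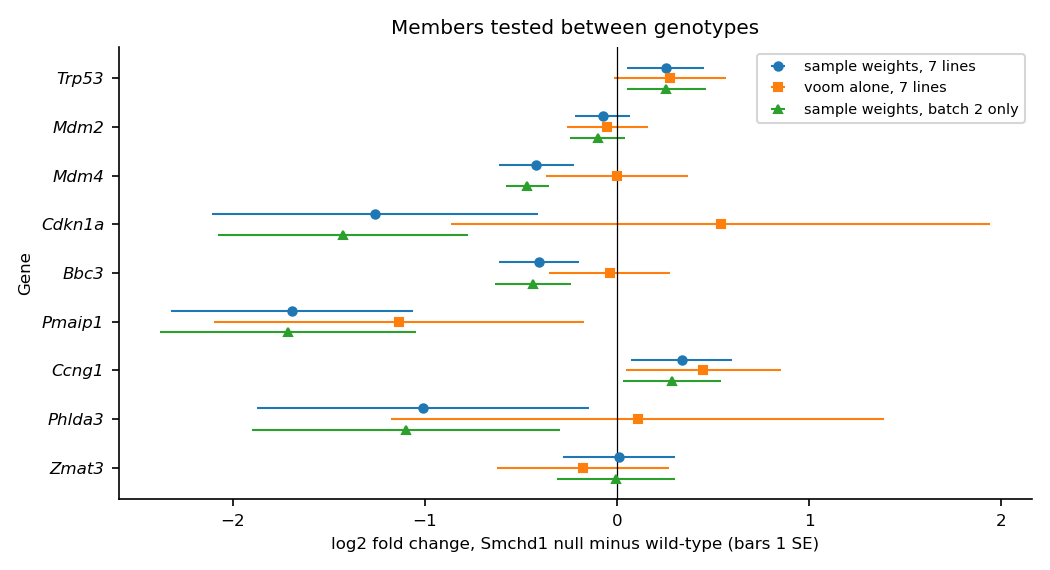
Log2 fold change of Smchd1 null over wild-type for the 9 tested members, from the weighted limma fit to all 7 lines (blue), voom alone on all 7 lines (orange) and the weighted fit without wild-type replicate 1 (batch 2 only, green), with bars of 1 standard error. No member passes an FDR of 0.05 with all lines, Mdm4 does so (FDR 0.0363) without wild-type replicate 1, and the bars of Cdkn1a and Phlda3 are the widest.

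Read line by line, the level of Cdkn2a and those of the p53 targets can be set side by side. Wild-type replicate 1, the line with Cdkn2a, had the lowest level of 4 of the 7 p53 targets among the members (Cdkn1a, Bbc3, Ccng1 and Phlda3) and also the lowest Mdm4. It was the highest in none of the 7. Over all genes tested it was the lowest line for 20.1% and the highest for 25.6%. Of the 4 lowest targets, only Ccng1 had a 95% counting interval apart from those of all other lines. The interval overlapped those of null replicates 2 and 3 in Cdkn1a, null replicate 2 in Bbc3 and null replicates 2 to 4 in Phlda3. The remaining targets in wild-type replicate 1 did not share the low level. Mdm2 was second lowest, Zmat3 (43.8 CPM) was the median of the 7 lines, and Pmaip1 was second highest. Trp53 was 215 CPM in the same line, above 4 of the other 6. In the median member target, wild-type replicate 1 differed from the median of the other lines by -0.95 on the log2 scale, against -0.0021 for all genes. The same measure was 0.11 and 0.35 in wild-type replicates 2 and 3, and 0.96, -0.78, -0.19 and 0.0039 in the null lines. Null replicate 2, with 1 Cdkn2a count, was thus low as well. Over all genes the measure stayed between -0.027 and 0.012 in every line. The values of wild-type replicate 1 describe 1 line, and its batch and read layout cannot be told apart from the line itself.

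Null replicate 1, the second line with Cdkn2a above the floor (4.59 CPM), had the highest level of 4 of the 7 targets (Mdm2, Ccng1, Phlda3 and Zmat3) and the lowest Pmaip1. Over all genes it was the highest line for 11.1%. The 2 lines with Cdkn2a therefore stood at opposite ends for Ccng1. For Phlda3, wild-type replicate 1 had 0 counts, and its interval (0 to 1.02 CPM) overlaps those of null replicates 2 to 4. It is therefore not set apart as the low end. Null replicate 4 had the highest Cdkn1a and Pmaip1 but the lowest Mdm2 and Zmat3, or 28.6% of the 7 targets each way. These shares are near those over all genes, for which it was the highest line for 23.8% and the lowest for 19.3%. Its Mdm2 interval (61.8 to 73.7 CPM) overlaps that of wild-type replicate 1 (63.2 to 81.0 CPM). By value, the targets did not rank the lines in a single order.

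Across the 7 lines, the log2 CPM of Cdkn2a had a Pearson correlation of 0.01 with Trp53, -0.86 with Mdm4, -0.71 with Cdkn1a and -0.64 with Bbc3. With the remaining members it was -0.38 for Ccng1, -0.37 for Phlda3, -0.22 for Mdm2, -0.09 for Pmaip1 and 0.26 for Zmat3. These describe 7 points, of which wild-type replicate 1 lies far from the rest in Cdkn2a. The genes whose pattern was most like that of Cdkn2a included Gm11893, Acot9, Senp5 and Btg3, at 0.98 to 0.99, all 4 highest in wild-type replicate 1. For Cdkn1a the 5 most alike were Mt1, Fdft1, Napa, Cmah and Ankrd50, at 0.97 to 0.98. Among the members, Bbc3 was most like Cdkn1a (0.90, rank 123 of 11942 genes), followed by Phlda3 (0.79).

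A wider set of 36 p53 target genes places the members among their like. Of these, 30 were tested and 6 were called, 2 higher and 4 lower in the null lines, beside 11.9% of all genes. The median log2 fold change of the 30 was 0.04, and 16 of the 30 had an unadjusted p under 0.05, beside 31.8% of all genes. Trp53inp1, which promotes p53 activity and autophagy, fell from 343, 605 and 653 CPM to 264, 137, 242 and 230 CPM (log2 fold change -1.66, FDR 0.0100).

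Btg2, an antiproliferative gene, was at 173, 228 and 262 CPM in the wild-type and 137, 162, 160 and 154 CPM in the null lines (log2 fold change -0.64, FDR 0.0172). Ddit4, an inhibitor of mTORC1 also known as Redd1, was at 44.9, 305 and 342 CPM against 161, 117, 89.7 and 110 CPM (log2 fold change -1.32, FDR 0.0476). In Ddit4 the groups overlap, since wild-type replicate 1 was the lowest of all lines, as it was in Mdm4. Rap2b, a Ras-like GTPase, rose from 10.5, 12.6 and 11.0 CPM to 31.8, 25.5, 37.2 and 36.6 CPM (log2 fold change 1.35, FDR 0.00800). Pidd1, the scaffold that activates caspase-2, was at 39.7, 33.5 and 32.4 CPM against 42.8, 51.7, 60.5 and 34.3 CPM, with groups that overlap (log2 fold change 0.57, FDR 0.0365). None of the 6 calls was made by voom alone or edgeR, which called 12 of all genes each, and none was made without wild-type replicate 2 or without wild-type replicate 3. In the last 2 fits wild-type replicate 1 takes the same sample weight as the other wild-type line, so they also change the weights. DESeq2 called 4 of the 30, among them Trp53inp1 (FDR 0.00407) and Rap2b (FDR 3.60e-07). It also called Ptp4a3 (FDR 0.0272), which the weighted fit did not call (FDR 0.0545). Btg2, Ddit4 and Pidd1 were not called by DESeq2 (FDR 0.111, 0.516 and 0.484). With block weights Ddit4 and Pidd1 were not called (FDR 0.127 and 0.0956).

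In this wider set wild-type replicate 1 was the lowest line for 8 of the 30 genes (26.7%, against 20.1% of all genes) and the highest for 1. Its median difference from the other lines over the 30 was 0.0051 on the log2 scale, with genes on both sides. The largest negative differences, named after their values were seen, were those of Plk2 (-2.67), Gadd45a (-2.20), Dcxr (-1.75), Ddit4 (-1.67) and Sesn2 (-1.49). Plk2 was lower still in null replicates 1 and 2, so wild-type replicate 1 was not its lowest line. Genes on the other side included Rrm2b (0.73) and Ddb2 (0.49). Whether the members and the wider set differ in this line was not tested. Null replicate 1 was the highest line for 6 of the 30.

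**Figure D4:**
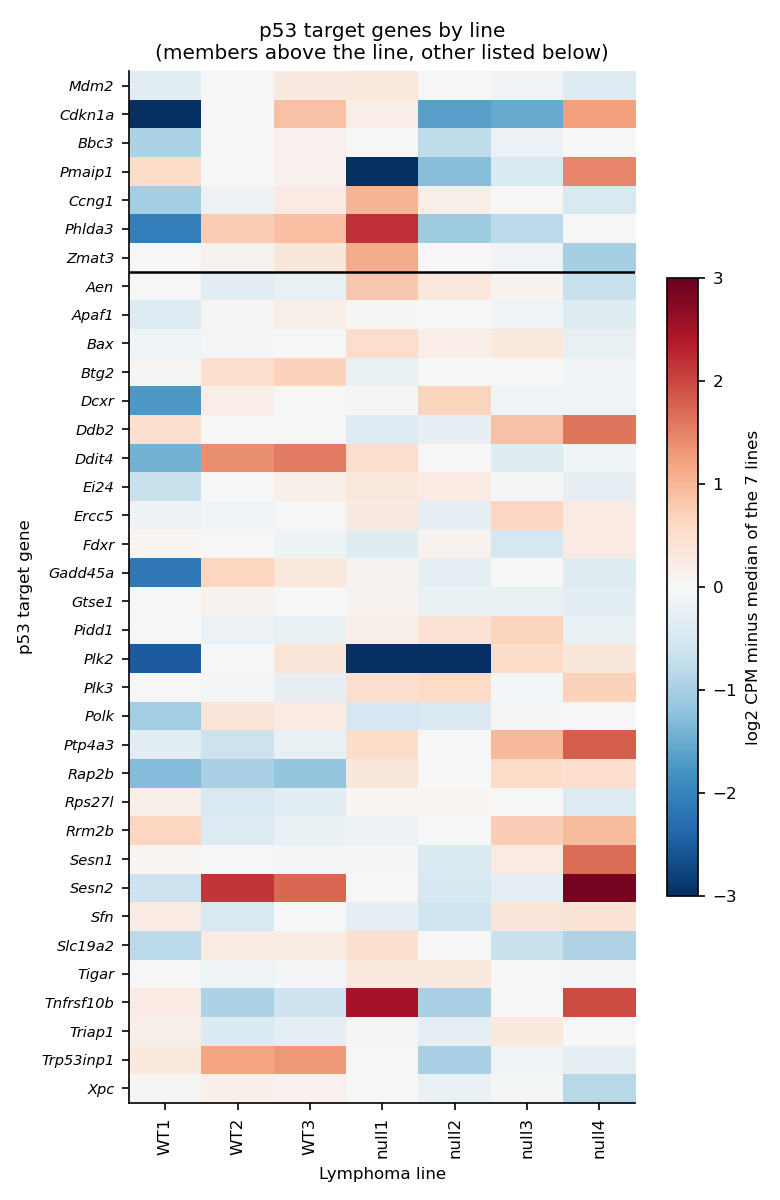
Log2 CPM of the tested p53 target genes in each line (1 gene of the wider set is not drawn), as the difference from the median of each gene over the 7 lines, with member genes and the wider set in separate blocks. Red is above and blue below the gene median, and the color scale stops at 3 in either direction. Wild-type replicate 1 is the lowest line for 4 of the 7 member targets and 8 of the 30 others. Of those 4, only Ccng1 has a 95% counting interval apart from all other lines.

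Of 28 regulators and partners of p53, 26 were tested and 2 were called, beside 11.9% of all genes. Usp10, a deubiquitinase that stabilizes p53, was at 259, 195 and 191 CPM in the wild-type and 230, 320, 261 and 298 CPM in the null lines (log2 fold change 0.51, FDR 0.0323), and the groups overlap. Hipk2, a kinase that phosphorylates p53, was lower, at 25.6, 45.8 and 36.1 CPM against 19.3, 15.7, 13.4 and 2.39 CPM (log2 fold change -1.53, FDR 0.0325). Its lowest level was in null replicate 4. Neither call was made by voom alone, voom with block weights, edgeR or DESeq2. Both were also lost on leaving out wild-type replicate 2 or 3, or null replicate 1, 2 or 3.

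Of 19 regulators of Cdkn2a, 16 were tested and 2 were called, both lower in the null lines. Over all genes, 11.9% were called and 6.85% were called lower. Myc was at 2544, 2094 and 2000 CPM in the wild-type lines and 1330, 1434, 1436 and 1408 CPM in the null lines (log2 fold change -0.56, FDR 0.0106). Wild-type replicate 1, the line with Cdkn2a, had the highest Myc of the 7 lines. Reads of the Myc transgene and of the endogenous gene cannot be told apart in these counts where both carry the same sequence. Rnf2, which encodes the catalytic Ring1b subunit of the Polycomb complex that silences Cdkn2a, was at 94.0, 105 and 103 CPM against 87.5, 83.2, 75.5 and 69.4 CPM (log2 fold change -0.35, FDR 0.0453). For Myc and Rnf2 the groups do not overlap. Neither was called by voom alone or edgeR, and Myc alone was called by DESeq2 (FDR 8.05e-07).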

How the data were processed

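Total RNA of 7 lymphoma cell lines (3 wild-type, 4 Smchd1 null) was prepared with the TruSeq kit and run on a HiSeq instrument. Reads were mapped to mm10 with Subread and summarized with featureCounts by the authors. The deposited values are raw counts per Entrez gene with the gene length, neither normalized nor pooled. Submitters' processing notes name CASAVA 1.8.2, edgeR 3.8.2 and limma 3.22.0. Multi-mapping and strand settings are not given in the sources used here.

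Symbols and coordinates were taken from RefSeq GRCm38.p6, the build that mm10 names, for 25275 of 27179 genes. CPM used the total count of each library, with exact 95% Clopper-Pearson intervals and a floor of 3 counts, both covering counting error only. RPKM used the deposited gene length. Groups followed the labels.

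The weighted fit was voomWithQualityWeights with 1 variance factor per sample (R 4.3.3, limma 3.58.1, edgeR 4.0.16), with no covariate, TMM factors and genes of at least 0.5 CPM in 3 or more samples, as in the study's methods. FDR is the Benjamini-Hochberg adjusted p over all 12303 genes, called under 0.05. The pipeline was tested on simulated data. Correlations used log2 CPM with a prior count of 2. Named genes were all members, the called genes of each list (up to 4 per direction by log2 fold change), the neighbors of Cdkn2a with 10 or more counts and the 5 genes most like Cdkn2a and Cdkn1a. A gene that these rules name but the text does not is not reported here. Alternatives included voom alone, block weights, sample removal, edgeR, DESeq2 1.42.0, other filters and factors, and leaving out each line. Wild-type replicates 2 and 3 differed by more than counting noise and were kept as 2 samples, which does not show that they are independent. The members, gene lists and tests were chosen with earlier results of these data known.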

Additional observations from a re-analysis of the deposited data

Results flagged for a closer look

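Each of the 10 members was screened, within the 4 Smchd1 null lines, for a line whose gap to its nearest neighbor was too large a share of the range of the group (Dixon's test at the 95% level). The 3 wild-type lines were not screened. Null replicate 1 stood apart in Cdkn2a, at 4.59 CPM against 0 to 0.161 CPM in the other null lines. The same line stood apart in Phlda3, at 5.78 CPM against 0.321 to 1.06 CPM. For normally distributed values, chance alone gives such a gap in about 1 in 20 groups. Both genes are at low counts (31 and 39 in that line), where this rate need not hold.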

How the results depend on the processing

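Over 168 combinations of a member and an alternative, 137 kept the direction and side of the threshold, 29 changed direction without being called, and 2 became calls (Mdm4). Those 2 came without wild-type replicate 1 and with batch as a covariate, which are nearly the same comparison. Trp53, Pmaip1 and Ccng1 changed direction under none, though leaving out single lines moved their log2 fold changes from 0.014 to 0.59, from -2.16 to -0.57 and from 0.014 to 0.88. Members called numbered 1 without wild-type replicate 1 and with batch as a covariate, and 0 to 1 when each line was left out in turn.

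Calls among the other p53 targets (6), p53 regulators (2), Cdkn2a regulators (2) and all genes (1466) became 0, 0, 0 and 12 with voom alone and 0, 0, 0 and 12 with edgeR. Block weights gave 0 regulators, 1 Cdkn2a regulator and 493 genes, and sample removal 1, 1 and 507. DESeq2 gave 0, 1 and 384, and no filter gave 1 Cdkn2a regulator. Wild-type replicates 2 and 3 summed gave 0, 0, 0 and 1. Voom alone within batch 2, chosen after seeing the data, gave 0, 0, 0 and 29. An FDR threshold of 0.1 gave 12, 4, 4 and 2797. Leaving out each line gave 0 to 8, 0 to 2, 0 to 3 and 1 to 1641. The lowest counts came without wild-type replicate 2 or 3, where the 2 wild-type lines left take equal sample weights. For the p53 regulators, leaving out null replicate 1, 2 or 3 also gave 0. Same-numbered lines did not deviate together (correlations of -0.154, 0.224 and -0.206). The deviations of wild-type replicate 1 ran against those of wild-type replicates 2 and 3 (-0.902 and -0.908), so this check cannot exclude a pairing. With the replicate block the counts were 2, 1, 0 and 222, with no member called.

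The direction of the log2 fold change turned for Mdm2 with wild-type replicates 2 and 3 summed (0.088) and on leaving out single lines (-0.22 to 0.18). Mdm4 was 0.0014 with voom alone and 0.24 summed (-0.48 to 0.34). Cdkn1a was 0.54 with voom alone, 0.11 with edgeR, 0.12 with DESeq2 and 0.30 summed (-1.64 to 1.25). Bbc3 turned only on leaving out wild-type replicate 3 (-0.46 to 0.024). Phlda3 was 0.11 with voom alone, 0.40 with edgeR, 0.43 with DESeq2 and 0.26 summed (-1.92 to 0.73). Zmat3 was -0.18 with voom alone, -0.014 with at least 10 counts in every sample, -0.067 with the replicate block, -0.0012 with the batch covariate and -0.24 with voom alone within batch 2 (-0.39 to 0.18). Cdkn2a, tested only with no filter, had a log2 fold change of 1.79 ± 1.67 (SE, FDR 0.549), opposite in sign to its group means. The causes were not tested. Depth limits Cdkn1a and Phlda3, which had no count in the shallowest library, where 3 counts are 0.827 CPM.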
